A study of Homo sapiens with 12 samples.

Results

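Collagen chain genes encode the polypeptides that wind into triple-helical collagens. The 40 rows whose gene symbol has the form COL, number, A, number were taken from the 44700 gene rows counted in each library. They cover 9 structural classes, and each had 3 or more counts over the 12 libraries together. The genes COL4A3, COL4A4, COL6A5 and COL20A1 were not analysed here. The libraries came from MALME-3M and SK-MEL-5, established human melanoma cell lines that the labels give as melanoma cells of WT genotype. Both were grown with interferon-γ (IFN-γ), a cytokine made by T cells and natural killer cells, added at seeding and kept on for 24 h, or untreated. The 4 groups of 3 libraries were IFN-γ-treated MALME-3M at 200 ng/mL, untreated MALME-3M, IFN-γ-treated SK-MEL-5 at 150 ng/mL and untreated SK-MEL-5. MALME-3M was kept in IMDM with more fetal bovine serum than the MEM of SK-MEL-5, so line, dose and medium cannot be told apart between the lines. Each line stands for itself alone as a model, and its untreated wells received no stated vehicle. Replicates are wells seeded side by side as far as the labels say, so the p-values below measure a spread that may be technical.

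Gene counts summed to 15514412 to 22921184 per library. Collagen genes took 5183 to 26477 of them, and 30 to 36 of the 40 rows were above 0 in a library. Levels are given as counts per 1000000 (CPM) on library sizes scaled by TMM, and levels of different genes are compared only as CPM per kb of annotated exon. A gene was called where the edgeR quasi-likelihood test gave a Benjamini-Hochberg adjusted p below 0.05 over all 15810 genes tested. Of the 40 collagen genes, 27 passed the count filter and were tested. The other 13 never exceeded 6 counts in a library.

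Each collagen is a trimer of identical or different chains, made in the endoplasmic reticulum with the help of prolyl and lysyl hydroxylases and dedicated chaperones, and then secreted, trimmed and cross-linked. Fibrillar collagens such as types I, II, III, V and XI build fibrils, and fibril-associated collagens sit on their surface. Type IV forms the sheet of basement membranes, type VI forms beaded filaments, and type VII anchors the epidermal basement membrane to the dermis. In fibroblasts, IFN-γ is known to lower type I collagen transcription, with CIITA and the RFX proteins acting at COL1A2.

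Before treatment the lines expressed different collagen chains. In untreated MALME-3M the highest levels per kb belonged to COL11A1, at 26.3 CPM per kb, COL9A3 at 21.7, COL4A2 at 10.3, COL18A1 at 7.49, COL4A1 at 5.01 and COL5A2 at 3.43. In untreated SK-MEL-5 they belonged to COL19A1, at 23.0 CPM per kb, COL6A2 at 4.21, COL5A2 at 1.83, COL25A1 at 1.25, COL4A2 at 1.04 and COL6A1 at 1.01. COL4A2 and COL5A2 were the genes on both lists. These ranks use the gene counts. The deposited transcript estimates of COL5A2 in both untreated lines and of COL25A1 in untreated SK-MEL-5 are far lower, as given below. COL19A1 held 62.5% of all collagen counts in IFN-γ-treated SK-MEL-5 and 57.4% in untreated SK-MEL-5. That share depends on the quantification: the deposited transcript estimates give COL19A1 37, 44 and 52 counts in the treated libraries, against 283, 283 and 221 for COL6A2. COL3A1 and COL5A1 were nearly silent in these cultures. COL3A1, the chain of type III collagen, did not exceed 3 counts in a library, and COL5A1, the main chain of type V, did not exceed 5.

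**Figure D1:**
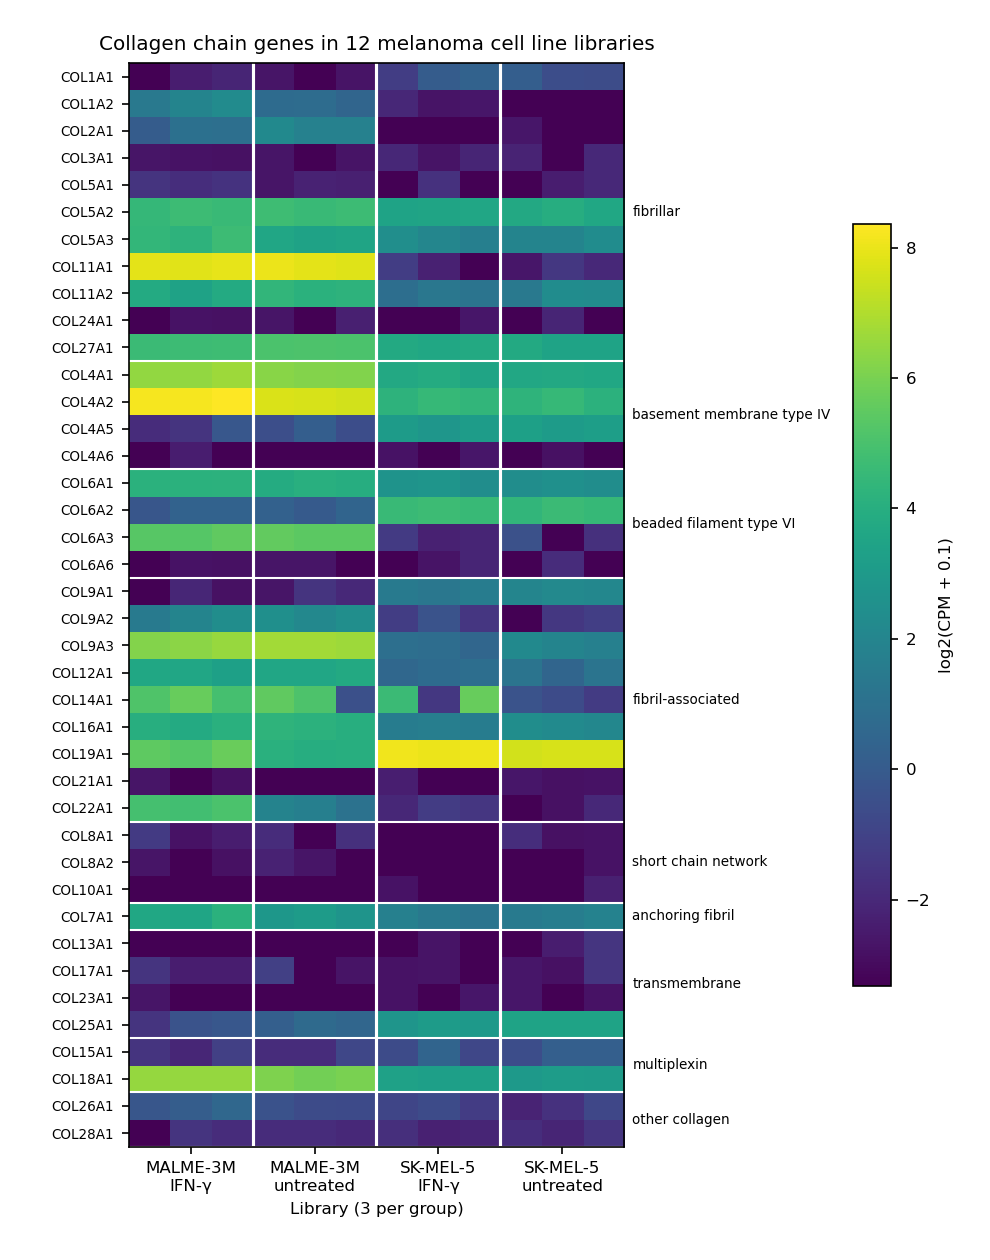
Level of each of the 40 collagen genes in each of the 12 libraries, as log2(CPM + 0.1) on a colour scale, with rows ordered by structural class and columns by group. The highest rows in untreated MALME-3M are COL11A1, COL4A2 and COL9A3, and the highest row in SK-MEL-5 is COL19A1, while the 13 untested genes stay dark throughout. The colours are not scaled to exon length and do not rank genes by level per kb.

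Between the untreated lines, 19 of the 27 tested collagen genes were higher in MALME-3M and 7 were lower. The same test called 34.5% of all tested genes higher and 37.2% lower, 71.7% in all, so most genes differed between the lines. The collagen genes' median log2 fold change, MALME-3M over SK-MEL-5, was 1.92, against -0.02 over all genes, and the median size of the change was 3.30 against 0.62. A collagen gene could pass the count filter through 1 line alone, so these medians are a description. The fibrillar class had 7 genes higher and 1 lower, and the fibril-associated class 6 higher and 2 lower. COL26A1 was tested and not called, at a log2 fold change of 1.04 (SE 0.50, adjusted p = 0.069), and was called without replicate 3 of untreated SK-MEL-5 (adjusted p = 0.021).

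COL11A1, a chain of the type XI collagen that nucleates cartilage fibrils (chr1:102876467-103108872, GENCODE 29 annotation on GRCh38), stood near 0 in SK-MEL-5. It had 256.7, 235.1 and 224.8 CPM in untreated MALME-3M, against 0.0635, 0.267 and 0.152 CPM in untreated SK-MEL-5. The log2 fold change was 10.38 (SE 0.18, adjusted p = 2.8e-19, edgeR). Its partner chain COL11A2 had 20.8, 17.7 and 18.8 CPM in untreated MALME-3M and 2.54, 5.11 and 4.91 CPM in untreated SK-MEL-5. COL2A1, the chain of type II collagen and also part of type XI, had 199 counts over the 3 untreated MALME-3M libraries and 1 count over the 3 untreated SK-MEL-5 libraries, a ratio of 219.8 (95% exact counting interval 39.0 to 8724.1). For COL11A1, COL11A2 and COL2A1 every untreated MALME-3M library lay above every untreated SK-MEL-5 library.

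Type I collagen is normally built from the products of COL1A1 and COL1A2, and the lines differed in which of them was the higher. COL1A2 had 1.62, 1.63 and 1.30 CPM in untreated MALME-3M and no count in untreated SK-MEL-5, which put it at least 29.1-fold higher in MALME-3M when the 0 is set to a floor of 3 counts over the group. COL1A1 ran the other way, with 0.0601, 0.00 and 0.0520 CPM in untreated MALME-3M and 1.02, 0.578 and 0.557 CPM in untreated SK-MEL-5. These were 2 and 40 counts in all, 18.1-fold lower in MALME-3M (95% exact counting interval 4.70 to 154.7). COL1A1 stayed under 1.2 CPM and COL1A2 under 5 CPM in every library.

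Genes lower in MALME-3M included COL4A5, a type IV chain of specialised basement membranes, and COL25A1, a transmembrane collagen first described in neurons. COL4A5 had 0.601, 1.02 and 0.572 CPM in untreated MALME-3M, against 9.85, 8.36 and 9.42 CPM in untreated SK-MEL-5 (log2 fold change -3.65, SE 0.29, adjusted p = 1.4e-09, edgeR). COL25A1 had 1.08, 1.57 and 1.35 CPM in untreated MALME-3M and 11.0, 10.9 and 11.0 CPM in untreated SK-MEL-5. COL15A1, a multiplexin of basement membrane zones, was the seventh gene of this group with COL19A1, COL1A1, COL6A2 and COL9A1, and its level stayed under 1.3 CPM in every library.

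Within heterotrimeric types, the lines differed in which partner chains were present. Type VI collagen is assembled from the products of COL6A1, COL6A2 and COL6A3. In MALME-3M, COL6A2 made up 2.66% to 3.99% of the type VI counts per kb with IFN-γ and 3.13% to 4.37% untreated. In SK-MEL-5 it made up 79.0% to 81.6% with IFN-γ and 79.2% to 80.8% untreated. COL6A3 showed the reverse, with 36.4% to 39.0% in IFN-γ-treated MALME-3M and 40.0% to 44.7% in untreated MALME-3M, against 0.0898% to 0.261% with IFN-γ and 0.00% to 0.675% untreated in SK-MEL-5. Each line thus held 2 of the 3 chains in quantity. COL6A2 had 1.14, 0.903 and 1.25 CPM in untreated MALME-3M and 20.5, 25.0 and 22.6 CPM in untreated SK-MEL-5. COL6A3 had 47.0, 42.1 and 42.8 CPM in untreated MALME-3M and 0.635, 0.00 and 0.203 CPM in untreated SK-MEL-5. The log2 fold changes were -4.36 (SE 0.16) for COL6A2 and 7.46 (SE 0.29) for COL6A3, with adjusted p = 7.8e-15 and 2.1e-14 (edgeR). COL6A1 was the chain common to both lines, at 14.7, 16.3 and 15.4 CPM in untreated MALME-3M and 5.15, 5.78 and 5.27 CPM in untreated SK-MEL-5.

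Type IX collagen, a fibril-associated heterotrimer of COL9A1, COL9A2 and COL9A3 chains in cartilage, also split. COL9A3 alone gave 93.9% to 95.9% of the type IX counts per kb in IFN-γ-treated MALME-3M and 94.2% to 95.4% in untreated MALME-3M. COL9A1 was the absent chain there, at 0.00% to 0.111% with IFN-γ and 0.0357% to 0.144% untreated, and in SK-MEL-5 it gave 38.5% to 53.5% with IFN-γ and 36.2% to 42.9% untreated. In CPM, COL9A1 stood at 0.0601, 0.241 and 0.156 in untreated MALME-3M, against 3.87, 4.40 and 4.15 in untreated SK-MEL-5. The SK-MEL-5 shares rest on 255 type IX counts with IFN-γ and 477 untreated. In type V, COL5A2 and COL5A3 shared nearly all gene counts in both lines, and COL5A1 stayed under 1% in every library. The split between COL5A2 and COL5A3 depends on the quantification. In untreated MALME-3M the deposited transcript estimates gave COL5A2 4, 90 and 11 counts and COL5A3 135, 8 and 135.

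**Figure D2:**
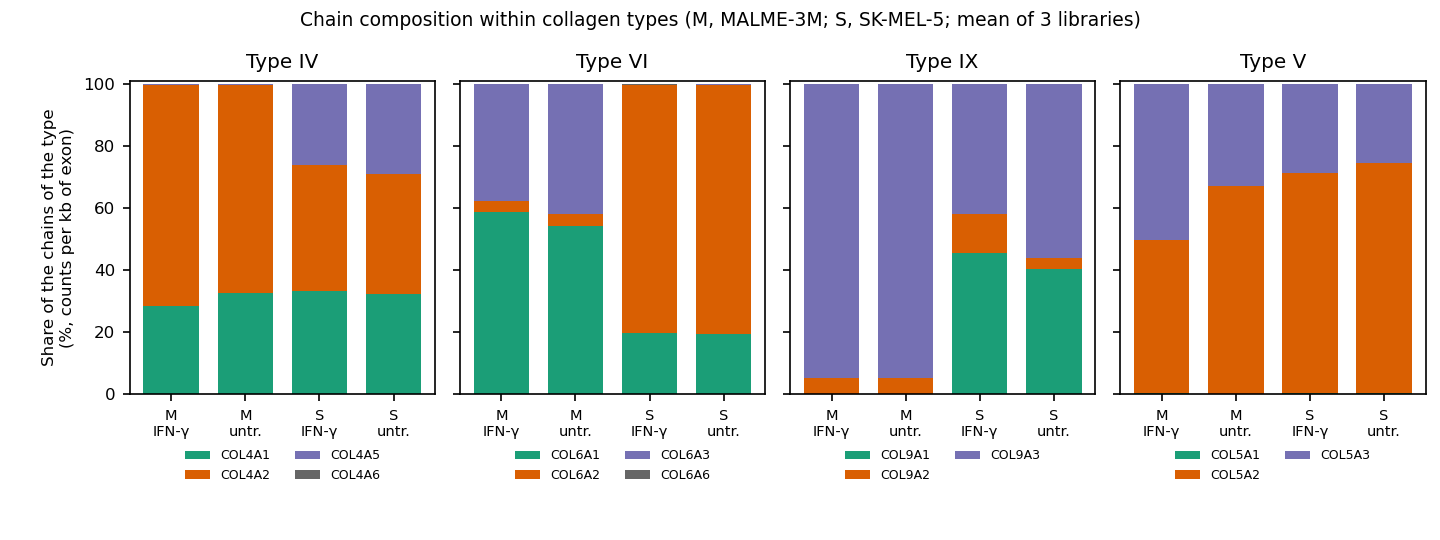
Mean share of each chain gene in the gene counts per kb of exon of types IV, VI, IX and V, in percent, for the 4 groups of 3 libraries. The type V shares depend on the quantification. COL6A3 and COL6A2 trade places between MALME-3M and SK-MEL-5, COL4A5 and COL9A1 are visible in the SK-MEL-5 bars, and the COL5A3 share of type V in MALME-3M is 50.3% with IFN-γ and 32.7% untreated.

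In MALME-3M, IFN-γ raised 8 of the 27 tested collagen genes and lowered 5, where the test called 9.51% of all tested genes higher and 8.77% lower. Counting both directions, 48.1% of the tested collagen genes and 18.3% of all tested genes were called. The median log2 fold change was -0.06 for the collagen genes and 0.00 for all genes, and the median size was 0.52 and 0.17. These medians are a description, since the tested genes include some that passed the count filter through SK-MEL-5. COL1A1 had 5 counts with IFN-γ and 2 untreated in MALME-3M, and COL9A1 had 4 and 8. The genes that rose were COL1A2 and COL5A3 (fibrillar), COL4A1 and COL4A2 (type IV), COL19A1 and COL22A1 (fibril-associated), COL7A1 (anchoring fibril) and COL18A1 (multiplexin). Those that fell were COL2A1, COL11A2 and COL27A1 (fibrillar), COL9A3 (fibril-associated) and COL25A1 (transmembrane). No type VI gene was called.

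Both chains of the common type IV collagen, COL4A1 and COL4A2, rose. COL4A2 had 294.7, 296.1 and 329.8 CPM in IFN-γ-treated MALME-3M and 207.3, 199.9 and 188.9 CPM in untreated MALME-3M, 1.54-fold higher (log2 fold change 0.63, SE 0.074, adjusted p = 4.7e-06, edgeR). COL4A1 had 89.9, 89.2 and 100.5 CPM with IFN-γ and 77.2, 73.4 and 70.9 CPM untreated, 1.26-fold higher (log2 fold change 0.34, SE 0.071, adjusted p = 0.0021). Treated and untreated libraries did not overlap for either gene. COL4A2 gave 71.3% to 71.6% of the type IV counts per kb with IFN-γ and 66.8% to 67.2% untreated in this line. COL4A1 (chr13:110148963-110307233, minus strand) and COL4A2 (chr13:110305812-110513209, plus strand) lie head to head, and their RefSeq starts are 127 bases apart. The 126 bases between those starts (chr13:110307158-110307283, GRCh38.p14, RefSeq) are shown on the plus strand, 5′ to 3′, because both genes moved and both read away from them. Capitals mark a CCAAT box (CCAAT), which lies 105 bases before the COL4A2 start, and a GC box (GGGCGG), 65 bases before it.
COL4A2: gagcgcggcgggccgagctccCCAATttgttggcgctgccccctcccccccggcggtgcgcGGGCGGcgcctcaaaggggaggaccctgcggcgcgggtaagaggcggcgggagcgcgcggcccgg
Neither an ISRE-type motif nor a GAS motif, elements known from interferon-responsive genes, was found by letter match in the 300-base windows of either gene.

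COL4A5, of the same class, was not called. It had 0.180, 0.234 and 0.807 CPM in IFN-γ-treated MALME-3M, and the test gave a log2 fold change of -0.76 (SE 0.43, adjusted p = 0.26, edgeR). Without IFN-γ replicate 3 of MALME-3M it was called lower (-1.78, SE 0.44, adjusted p = 0.010). It forms a second head-to-head pair with COL4A6 on chromosome X, with the nearest RefSeq starts 380 bases apart, yet COL4A6 stayed at 0 to 2 counts in every library while COL4A5 had 7.04 to 9.85 CPM across the SK-MEL-5 libraries. The 250 bases before the COL4A5 start (chrX:108439588-108439837, plus strand, GRCh38.p14, RefSeq) are shown for comparison with the pair above. Capitals mark a CCAAT box on each strand (CCAAT and ATTGG), 247 and 239 bases before the start.
COL4A5: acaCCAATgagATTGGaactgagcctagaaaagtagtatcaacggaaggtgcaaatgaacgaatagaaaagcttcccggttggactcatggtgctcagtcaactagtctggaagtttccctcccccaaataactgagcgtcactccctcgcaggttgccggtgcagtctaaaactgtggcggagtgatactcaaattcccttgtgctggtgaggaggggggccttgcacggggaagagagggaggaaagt
No GC box of the letters GGGCGG was found in the window of COL4A5, and the same holds for the nearer window of COL4A6.

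COL22A1, a fibril-associated collagen of tissue junctions such as those of muscle and tendon, showed the steepest rise in MALME-3M among the called genes. It had 30.1, 28.4 and 33.2 CPM in IFN-γ-treated MALME-3M and 3.66, 3.25 and 2.03 CPM in untreated MALME-3M, 10.3-fold higher (log2 fold change 3.37, SE 0.19, adjusted p = 1.1e-10, edgeR). In SK-MEL-5 it had 0.147, 0.323 and 0.260 CPM with IFN-γ, against 0.00, 0.0445 and 0.152 CPM untreated, and was not called. COL19A1, a fibril-associated collagen of basement membrane zones (chr6:69866571-70209976), had 43.9, 39.3 and 52.4 CPM in IFN-γ-treated MALME-3M and 16.8, 15.5 and 16.2 CPM in untreated MALME-3M, 2.80-fold higher (log2 fold change 1.49, SE 0.083, adjusted p = 1.1e-10). For both genes every treated library lay above every untreated one.

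Among the fibrillar genes that rose, COL5A3 encodes a rarer type V chain. It had 21.5, 18.9 and 25.9 CPM in IFN-γ-treated MALME-3M and 11.8, 10.7 and 11.3 CPM in untreated MALME-3M (log2 fold change 0.97, SE 0.15, adjusted p = 0.00014, edgeR). COL5A2, its partner, was not called, with 21.7, 25.8 and 24.0 CPM with IFN-γ and 26.8, 24.3 and 25.6 CPM untreated. The COL5A3 share of type V counts per kb was accordingly 44.7% to 54.2% with IFN-γ and 32.7% to 32.8% untreated. These shares use the gene counts. On transcript estimated counts the COL5A3 rise was not called (log2 fold change 0.61, SE 0.97, adjusted p = 0.82, edgeR). COL1A2 had 2.58, 3.79 and 4.84 CPM in IFN-γ-treated MALME-3M and 1.62, 1.63 and 1.30 CPM in untreated MALME-3M, 2.48-fold higher (log2 fold change 1.31, SE 0.30, adjusted p = 0.0055).

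COL7A1, which encodes the anchoring fibril collagen, had 12.4, 11.6 and 17.3 CPM in IFN-γ-treated MALME-3M and 7.09, 8.37 and 6.45 CPM in untreated MALME-3M. The groups did not overlap, and the log2 fold change was 0.92 (SE 0.17, adjusted p = 0.00083, edgeR). The 250 bases before its RefSeq start (chr3:48595330-48595579, minus strand, GRCh38.p14) are shown 5′ to 3′ because COL7A1 and COL11A2 alone among the collagen genes with a window held a GAS match (TTCNNNGAA, its own reverse complement). Capitals mark 2 matches with 1 base between them, 162 and 152 bases before the start.
COL7A1: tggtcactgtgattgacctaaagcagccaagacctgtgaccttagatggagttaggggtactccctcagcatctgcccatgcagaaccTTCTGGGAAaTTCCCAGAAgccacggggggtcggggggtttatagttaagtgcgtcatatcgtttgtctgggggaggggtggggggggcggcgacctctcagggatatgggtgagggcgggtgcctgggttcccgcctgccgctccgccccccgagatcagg
COL11A2, the other gene with a match, was called lower with IFN-γ in both lines. A letter match of this kind is a description of the sequence and no evidence of a bound factor.

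COL18A1, the multiplexin from which endostatin is released, had 91.2, 92.7 and 90.1 CPM in IFN-γ-treated MALME-3M and 68.6, 59.3 and 63.6 CPM in untreated MALME-3M, 1.43-fold higher (log2 fold change 0.52, SE 0.063, adjusted p = 7.3e-06, edgeR). In SK-MEL-5 it had 10.3, 9.46 and 9.89 CPM with IFN-γ and 7.75, 8.72 and 8.35 CPM untreated, groups that did not overlap, but it missed the threshold there (log2 fold change 0.25, SE 0.082, adjusted p = 0.051). It passed with DESeq2 size factors (adjusted p = 0.049), upper-quartile scaling (0.043), a minimum count of 30 (0.023) and without MALME-3M IFN-γ replicate 1 (0.041) or 3 (0.039), and not in the other fits, so this call depends on the setting. COL18A1 overlaps SLC19A1 on the opposite strand over 20149 bases, and no source used here states whether counting used strand.

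The genes that fell in MALME-3M included COL2A1, the type II chain, and COL11A2, a type XI chain. COL2A1 had 0.960, 1.87 and 1.84 CPM in IFN-γ-treated MALME-3M and 4.62, 3.43 and 3.38 CPM in untreated MALME-3M, 2.41-fold lower (log2 fold change -1.27, SE 0.32, adjusted p = 0.011, edgeR). COL11A2 had 14, 10.5 and 14.1 CPM with IFN-γ and 20.8, 17.7 and 18.8 CPM untreated (log2 fold change -0.57, SE 0.17, adjusted p = 0.025). COL9A3, a type IX chain, had 72.7, 80.2 and 94.0 CPM with IFN-γ and 106.1, 106.6 and 101.9 CPM untreated (log2 fold change -0.35, SE 0.084, adjusted p = 0.0063). Every treated library of these 3 genes lay below every untreated one. COL11A1, the partner chain of COL11A2, had 233.9, 232.0 and 240.9 CPM with IFN-γ and was not called (log2 fold change -0.02, SE 0.089, adjusted p = 0.92).

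COL27A1, a fibrillar collagen of developing cartilage, had 25.0, 26.1 and 26.5 CPM in IFN-γ-treated MALME-3M and 32.9, 34.4 and 32.9 CPM in untreated MALME-3M (log2 fold change -0.37, SE 0.088, adjusted p = 0.0060, edgeR). COL25A1 had 0.240, 0.702 and 0.807 CPM with IFN-γ and 1.08, 1.57 and 1.35 CPM untreated (log2 fold change -1.13, SE 0.31, adjusted p = 0.014). Its 37 treated and 70 untreated counts make it the sparsest gene called under IFN-γ in this line. Some of the 5 calls of lower genes rested on single libraries. COL11A2 was not called without untreated replicate 1 (adjusted p = 0.099), untreated replicate 3 (0.067) or IFN-γ replicate 2 (0.13), COL2A1 not without untreated replicate 1 (0.066), and COL25A1 not without untreated replicate 2 (0.061), all of MALME-3M, so that the number of lower genes was 3 without untreated replicate 1. Fitted on the 6 MALME-3M libraries alone, the 4 others were called lower beside 9.53% of all genes tested, and COL25A1 missed the threshold (adjusted p = 0.065).

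**Figure D3:**
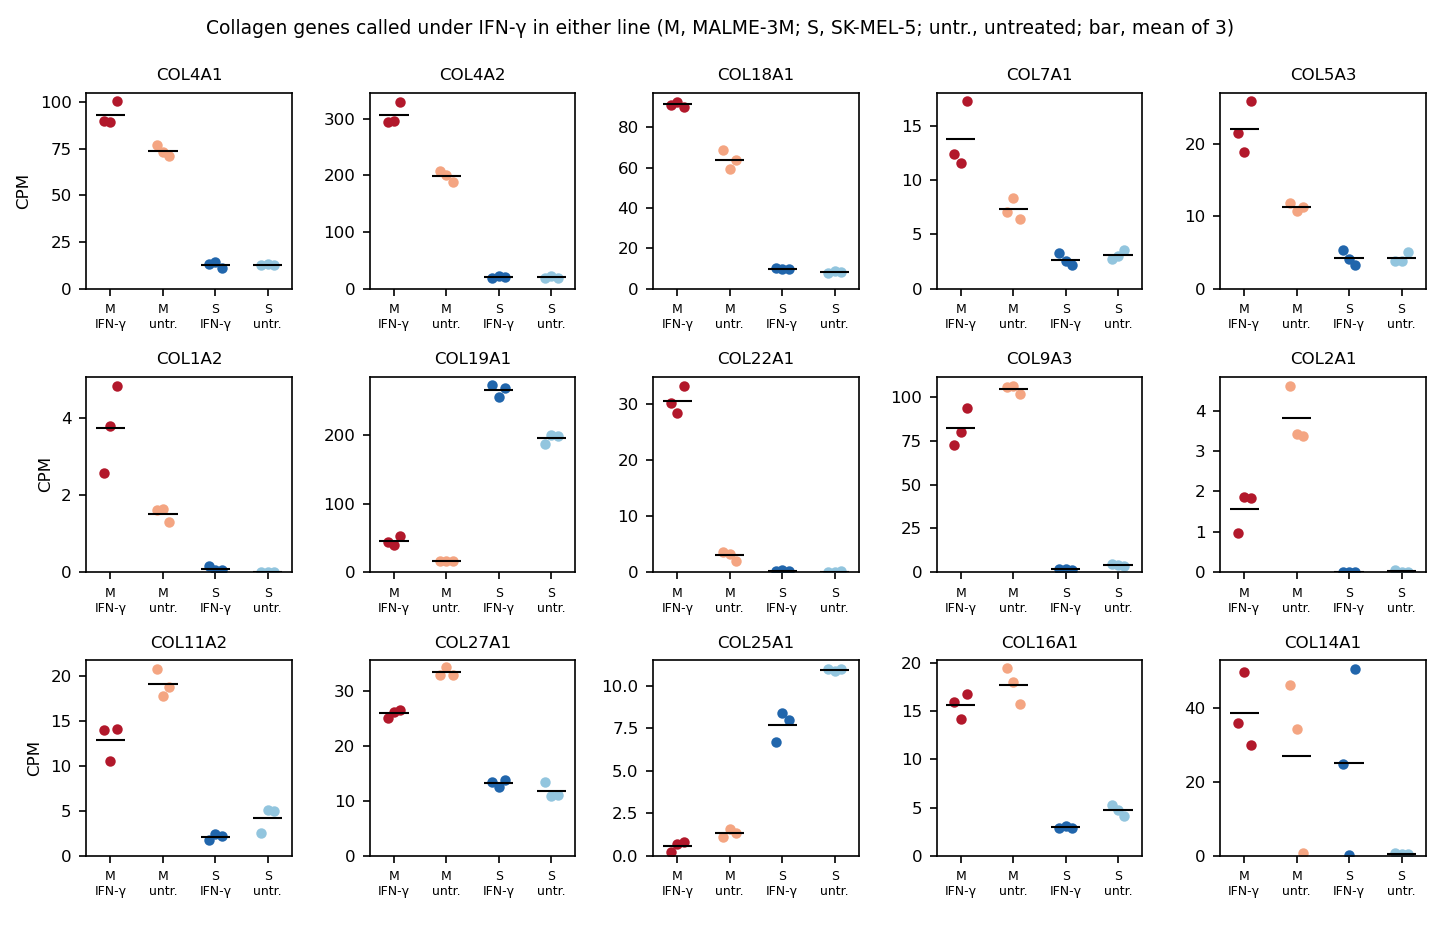
CPM of the 15 collagen genes called under IFN-γ in either line, with 1 point per library and a bar at the mean of 3, on linear axes that start at 0. In MALME-3M the treated points of COL22A1, COL4A2 and COL18A1 lie above all untreated points, and COL14A1 is split into libraries near 0 and libraries at 24.8 CPM or more within single groups.

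In SK-MEL-5, IFN-γ raised 2 of the 27 tested collagen genes and lowered 3, where 5.98% of all tested genes were called higher and 7.05% lower. Both directions together gave 18.5% of the tested collagen genes and 13.0% of all tested genes, so the collagen share was near the background. The median log2 fold change was 0.02 for the collagen genes and -0.03 for all genes, and the median size was 0.29 and 0.15. Here too the medians are a description, since some tested genes passed the count filter through MALME-3M. COL1A2 had 5 counts with IFN-γ and 0 untreated in SK-MEL-5, and COL2A1 had 0 and 1.

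COL19A1 rose in SK-MEL-5, to 273.2, 256.8 and 269.1 CPM with IFN-γ, against 187.5, 200.3 and 198.8 CPM untreated, 1.36-fold (log2 fold change 0.45, SE 0.072, adjusted p = 0.00025, edgeR). COL9A3 fell, with 1.81, 1.72 and 1.37 CPM with IFN-γ and 4.57, 3.78 and 3.29 CPM untreated, 2.32-fold lower (log2 fold change -1.22, SE 0.17, adjusted p = 3.9e-05). COL11A2 had 1.76, 2.37 and 2.15 CPM with IFN-γ and 2.54, 5.11 and 4.91 CPM untreated (log2 fold change -1.03, SE 0.23, adjusted p = 0.0047). In MALME-3M COL19A1 was called higher and COL9A3 and COL11A2 lower, as given above. The share of all tested genes called in both lines was not computed, so no shared collagen response is read from this. On transcript estimated counts COL9A3 alone was called in both lines. COL16A1, a fibril-associated collagen, had 2.88, 3.06 and 2.86 CPM with IFN-γ and 5.27, 4.71 and 4.15 CPM untreated (log2 fold change -0.67, SE 0.15, adjusted p = 0.0046). In MALME-3M COL16A1 had 16.0, 14.2 and 16.8 CPM with IFN-γ and 19.5, 18.0 and 15.8 CPM untreated and was not called (log2 fold change -0.18, SE 0.12, adjusted p = 0.34).

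COL14A1, a fibril-associated collagen of tendon and skin (chr8:120059780-120372036), was called higher in SK-MEL-5 with a log2 fold change of 5.61 (SE 1.3, adjusted p = 0.0078, edgeR), but its libraries did not separate by treatment. Its counts were 508, 5 and 775 in IFN-γ-treated SK-MEL-5 and 11, 12 and 6 in untreated SK-MEL-5. In MALME-3M they were 598, 1064 and 669 with IFN-γ and 769, 570 and 12 untreated. A split of more than 20-fold between replicates of 1 group, at a group mean over 100 counts, occurred in 26 of the 15810 tested genes, and COL14A1 was the 1 collagen gene among them. The SK-MEL-5 call was lost without IFN-γ replicate 3 (adjusted p = 0.051), which left COL19A1 as the 1 higher gene. The higher level of COL14A1 in untreated MALME-3M was called as well, with overlapping groups.

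Several chains of SK-MEL-5 came close to the threshold or had values in 1 direction without a call. COL25A1 had 6.69, 8.44 and 8.0 CPM with IFN-γ and 11.0, 10.9 and 11.0 CPM untreated (log2 fold change -0.51, SE 0.18, adjusted p = 0.072, edgeR). COL9A1 had 2.59, 2.37 and 2.86 CPM with IFN-γ and 3.87, 4.40 and 4.15 CPM untreated (log2 fold change -0.67, SE 0.27, adjusted p = 0.11). Fitted on the 6 SK-MEL-5 libraries alone, both were called, and 5 genes in place of 3 were lower, beside 5.63% of all genes tested in that fit. COL19A1 and COL14A1 were again the 2 higher genes, beside 7.40% of all. COL1A2 was seen with 5 counts in IFN-γ-treated SK-MEL-5 and 0 untreated, at least 1.77-fold higher, and was not called (adjusted p = 0.080).

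Other abundant chains of SK-MEL-5 kept close to their untreated levels. COL6A2 had 24.4, 26.0 and 23.5 CPM with IFN-γ, at a log2 fold change of 0.12 (SE 0.11, adjusted p = 0.59, edgeR). COL4A2 had 18.9, 22.5 and 20.8 CPM with IFN-γ and 19.4, 22.9 and 18.1 CPM untreated, and COL4A1 had 13.2, 14.3 and 11.2 CPM and 12.7, 13.0 and 12.5 CPM. For both type IV genes the groups overlapped, with log2 fold changes of 0.03 and 0.02 (SE 0.086 each, adjusted p = 0.87 and 0.92). COL5A2 had 10.9, 11.3 and 11.8 CPM with IFN-γ and 13.2, 15.3 and 12.4 CPM untreated (log2 fold change -0.27, SE 0.10, adjusted p = 0.11), and COL6A1 had 6.35, 6.77 and 5.14 CPM and 5.15, 5.78 and 5.27 CPM (0.18, SE 0.13, adjusted p = 0.44).

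**Figure D4:**
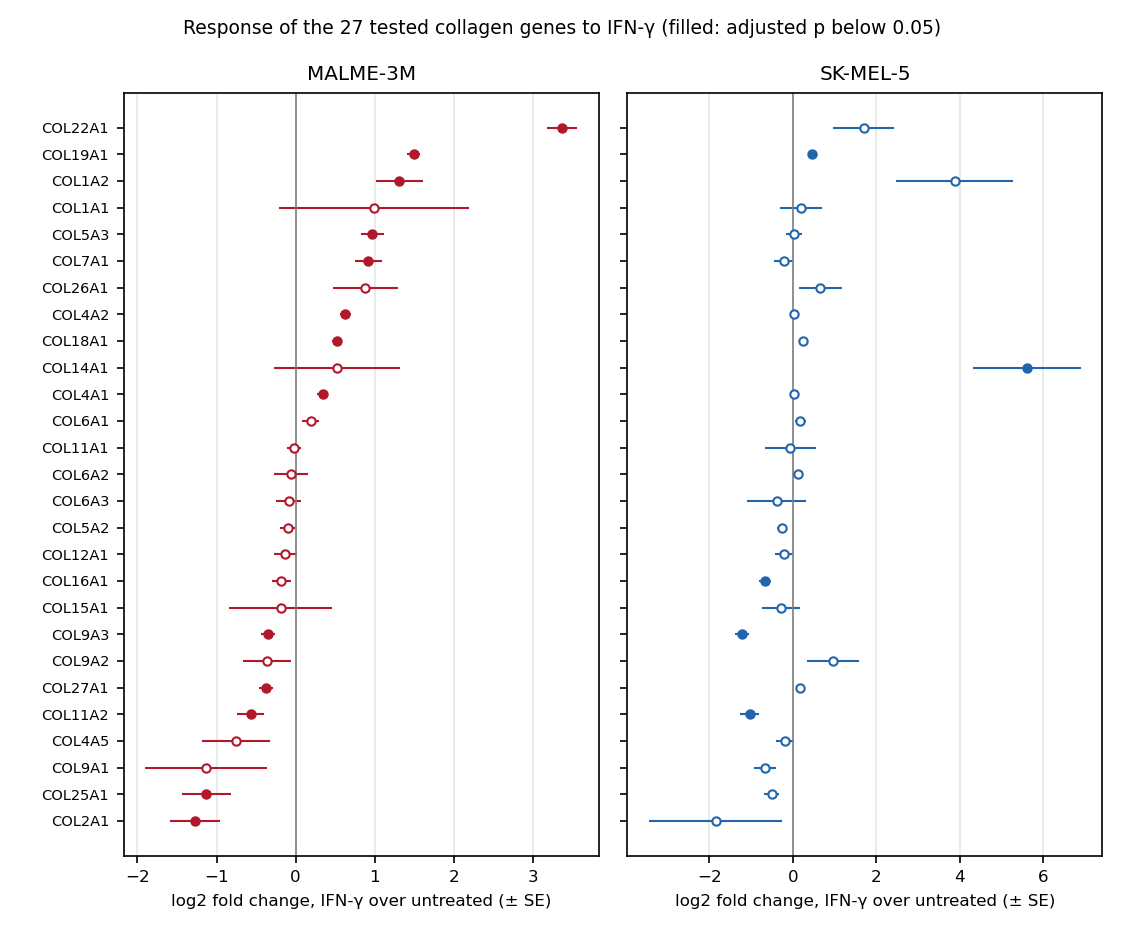
Log2 fold change with IFN-γ over untreated, with its SE, for the 27 tested collagen genes in each line, on x axes of different range; filled points have an adjusted p below 0.05. The 13 filled points of MALME-3M run from -1.27 for COL2A1 to 3.37 for COL22A1, and the wide bar of COL14A1 in SK-MEL-5 (SE 1.3) goes with its split libraries.

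The difference between the responses was tested directly, as the log2 fold change in MALME-3M minus that in SK-MEL-5. It was positive for 5 collagen genes and negative for 1, where 2.67% of all tested genes were called positive and 1.79% negative, 4.46% in all. Of all calls in this comparison, 59.9% were positive with TMM scaling and 49.2% with upper-quartile scaling, while the 6 collagen calls stood under both. COL19A1 rose in both lines, and more in MALME-3M (difference 1.04, SE 0.11, adjusted p = 7.5e-06, edgeR). COL4A2 (0.59, SE 0.11, adjusted p = 0.0035), COL7A1 (1.14, SE 0.28, adjusted p = 0.023) and COL5A3 (0.95, SE 0.24, adjusted p = 0.029) were called higher in MALME-3M and not called in SK-MEL-5. There COL7A1 had 3.27, 2.53 and 2.15 CPM with IFN-γ and 2.73, 3.02 and 3.54 CPM untreated, and COL5A3 had 5.37, 4.03 and 3.25 CPM and 3.81, 3.74 and 5.06 CPM.

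COL9A3 fell in both lines and its difference was positive because it fell less in MALME-3M (0.87, SE 0.19, adjusted p = 0.010, edgeR). COL27A1 was the negative one (-0.53, SE 0.13, adjusted p = 0.023). It was lower with IFN-γ in MALME-3M and had 13.4, 12.4 and 13.7 CPM with IFN-γ and 13.4, 10.9 and 11.0 CPM untreated in SK-MEL-5. The differences of COL19A1, COL4A2 and COL9A3 held without any 1 library. That of COL5A3 was lost without any of 7 libraries (SK-MEL-5 untreated 3 and IFN-γ 2 and 3, MALME-3M untreated 2 and 3 and IFN-γ 1 and 3, adjusted p up to 0.11). That of COL7A1 was lost without any of 5 (SK-MEL-5 untreated 3 and IFN-γ 2 and 3, MALME-3M untreated 3 and IFN-γ 3, up to 0.079), and that of COL27A1 without any of 5 (SK-MEL-5 untreated 2 and 3 and IFN-γ 1 and 3, MALME-3M untreated 2, up to 0.072). Leaving out 1 library gave 3 to 5 positive and 0 to 2 negative genes. COL22A1 had the largest response in MALME-3M, but with few counts in SK-MEL-5 its difference was not called (1.67, SE 0.99, adjusted p = 0.44).

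Under IFN-γ, 19 collagen genes were again higher in MALME-3M than in SK-MEL-5 and 7 lower, where 35.4% of all tested genes were called higher and 36.4% lower, 71.8% in all. COL26A1 joined the higher genes (log2 fold change 1.26, SE 0.43, adjusted p = 0.013, edgeR) and COL14A1 left them (0.63, SE 0.81, adjusted p = 0.49). The call of COL26A1 was lost without IFN-γ replicate 3 of SK-MEL-5 (adjusted p = 0.052) or of MALME-3M (0.080), and that of COL15A1 without IFN-γ replicate 2 of SK-MEL-5 (0.16) or of MALME-3M (0.077). COL19A1 stood at a log2 fold change of -2.56 (SE 0.078) between the treated lines and -3.60 (SE 0.085) between the untreated lines. COL4A2 stood at 3.89 (SE 0.086) and 3.30 (SE 0.084). These comparisons use the same libraries as the treatment comparisons and add no independent evidence.

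The summed counts of the set, in which abundant genes weigh most, took a larger part of the gene counts with IFN-γ in every library of both lines. In MALME-3M it took 1069.6, 1100.2 and 1213.1 per 1000000 gene counts with IFN-γ and 999.5, 942.3 and 886.2 untreated, a difference of 185.0. In SK-MEL-5 it took 429.8, 391.5 and 447.7 with IFN-γ and 326.3, 344.3 and 340.7 untreated, a difference of 85.9. An exact two-sided permutation test gave p = 0.10 in each line (n = 3 and 3), the smallest p this design allows. Without COL19A1 the SK-MEL-5 difference was 15.9 (exact permutation p = 0.40, n = 3 and 3), with 158.6, 138.5 and 181.1 per 1000000 with IFN-γ and 140.4, 147.8 and 142.3 untreated. In MALME-3M the difference without COL19A1 was 155.9, with p = 0.10 by the same exact test. Without COL14A1, whose libraries are split within groups, the SK-MEL-5 difference was 61.5 (exact permutation p = 0.10, n = 3 and 3). Leaving out both genes was not tested. In MALME-3M COL4A2 alone had a mean of 306.9 CPM with IFN-γ and 198.7 CPM untreated. The median log2 fold change of the collagen genes there was -0.06, so the larger sum is not a rise of most members.

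Of the tested collagen genes, 4 are given by their range. COL12A1, a fibril-associated collagen, had 9.99 to 13.5 CPM in the MALME-3M libraries and 1.29 to 2.16 CPM in the SK-MEL-5 libraries, COL9A2 had 2.70 to 5.47 CPM and 0.00 to 0.699 CPM, COL26A1 had 0.520 to 1.39 CPM and 0.127 to 0.538 CPM, and COL15A1 had 0.140 to 0.468 CPM and 0.455 to 1.24 CPM. None was called under IFN-γ in either line. The 13 untested genes had 3 to 37 counts over all 12 libraries, the lowest being COL10A1, the hypertrophic cartilage collagen, and the highest COL28A1.

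The deposited files hold a second quantification, estimated counts per transcript, which were summed to genes through GENCODE 29. Over the 13113 tested genes present in both, the summed transcript counts were 41.6% of the gene counts at the median, and 5.73% to 80.7% between the 5th and the 95th percentile. Most collagen genes lay within that range, with COL4A2 at 58.6%, COL9A3 at 58.6%, COL6A2 at 59.0%, COL11A1 at 44.7% and COL7A1 at 51.2%. Below it lay COL19A1 at 0.848%, COL14A1 at 0.920% and COL15A1 at 3.20%. COL22A1 at 7.08% and COL5A2 at 7.23% stood near its lower end. The ratio also varied between groups and between replicates of a group. COL4A1 stood at 15.4% and COL18A1 at 5.18% in untreated SK-MEL-5, and at 64.0% and 22.1% in IFN-γ-treated SK-MEL-5. In the untreated SK-MEL-5 libraries COL4A1 had 6, 3 and 105 estimated transcript counts on 200, 293 and 247 gene counts. COL18A1 had 0, 25 and 0 on 122, 196 and 165 there. COL19A1 had 4137 to 5592 gene counts but 37 to 52 estimated transcript counts in the IFN-γ-treated SK-MEL-5 libraries, and COL14A1 had no more than 7 estimated transcript counts in any library. The gene tables also hold 15830 rows named MSTRG, a prefix that the transcript assembler StringTie gives to assembled loci, so the exons counted may reach beyond GENCODE. Levels depend on which quantification is read, most of all those of COL19A1, COL14A1 and COL15A1. In untreated SK-MEL-5, COL5A2 had 208, 345 and 244 gene counts and 0, 7 and 70 estimated transcript counts. COL25A1 had 173, 244 and 218 gene counts there and 31, 18 and 4 estimated transcript counts. In untreated MALME-3M, COL5A2 had 446, 404 and 492 gene counts and 4, 90 and 11 estimated transcript counts. All levels and chain shares per kb use GENCODE exon lengths.

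**Figure D5:**
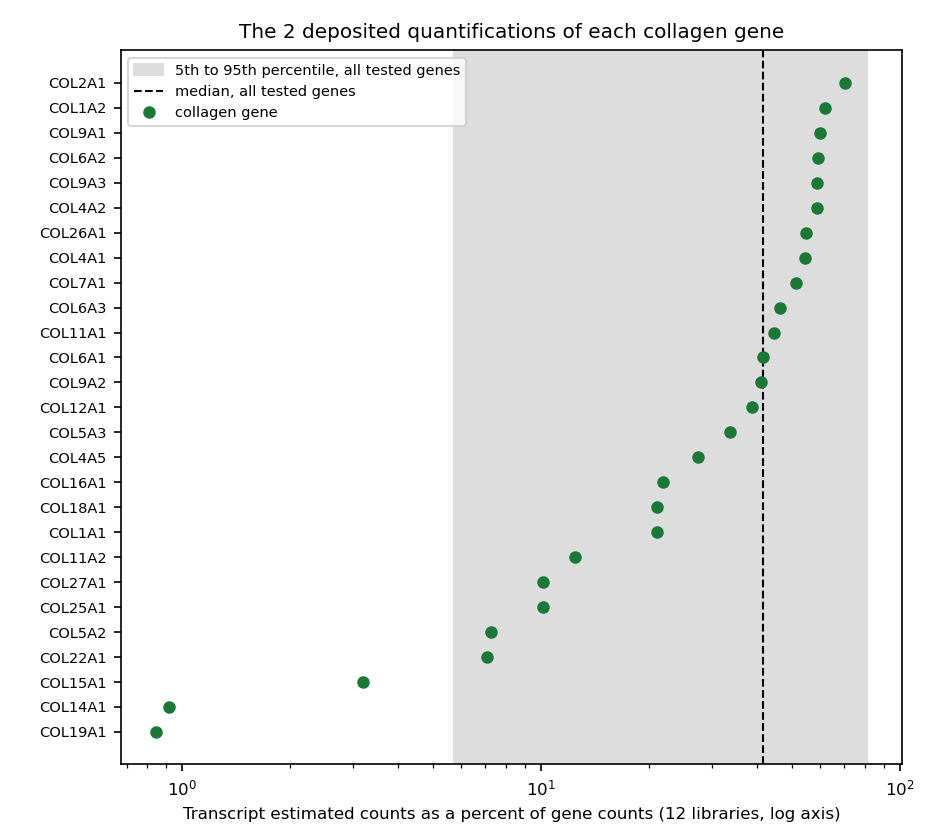
Summed transcript estimated counts as a percent of gene counts over all 12 libraries, on a log axis, for the 27 tested collagen genes, with the median (41.6%) and the 5th to 95th percentile range (5.73% to 80.7%) of all 13113 tested genes in both tables. COL19A1, COL14A1 and COL15A1 lie below the range and COL2A1, at 70.4%, is the highest.

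The transcript counts allowed 23 collagen genes to be tested among 12502 genes. With IFN-γ in MALME-3M, 2 of them were called higher and 1 lower, where 4.14% of all tested genes were higher and 3.26% lower. They were COL22A1 (log2 fold change 2.64, SE 0.72, adjusted p = 0.048, edgeR), COL4A2 (0.61, SE 0.081, adjusted p = 0.00063) and COL9A3 (-0.33, SE 0.078, adjusted p = 0.024). In SK-MEL-5 COL9A3 was the 1 gene called (-1.22, SE 0.13, adjusted p = 0.00014), beside 1.45% of all tested genes lower. It was also the 1 gene called in the difference of the responses (0.89, SE 0.15, adjusted p = 0.020), beside 0.536% of all tested genes positive. No collagen gene was called higher in SK-MEL-5 by edgeR on these counts, beside 3.12% of all tested genes, and 2 had an unadjusted p below 0.05. COL7A1 in MALME-3M missed the threshold (1.16, SE 0.32, adjusted p = 0.050). COL19A1 had values of 1.20 (SE 0.88, adjusted p = 0.54) in MALME-3M and 0.79 (SE 0.65, adjusted p = 0.65) in SK-MEL-5. COL11A2 in SK-MEL-5 changed sign, at 0.65 (SE 0.96, adjusted p = 0.83). Between the untreated lines 15 genes were called higher in MALME-3M and 4 lower, beside 28.2% and 28.7% of all tested genes, and COL6A2, COL6A3, COL9A1 and COL4A5 kept their direction and their call.

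Several of the genes that moved lie close to one another or to unrelated genes. COL19A1 and COL9A1 end 5084 bases apart on chromosome 6 on opposite strands, and in SK-MEL-5 the values of the first were higher and of the second lower with IFN-γ. COL6A1 and COL6A2 follow each other on chromosome 21 with 93046 bases between them, and between the lines COL6A1 was higher and COL6A2 lower in MALME-3M. COL19A1 overlaps LMBRD1 over 666 bases and COL9A3 overlaps TCFL5 over 45 bases, each on the opposite strand, and COL4A1 and COL4A2 overlap by 1422 bases in GENCODE 29. Reads in such stretches cannot be assigned with certainty while the strand setting is unknown.

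RefSeq promoter windows of 300 bases, from 250 before the start to 50 after it, were at hand for 30 of the 40 collagen genes, 42 windows in all. None was at hand for COL1A1, COL1A2, COL2A1, COL3A1, COL5A2, COL6A1, COL8A1, COL9A3, COL14A1 and COL22A1. The search did not cover these genes, of which COL1A2, COL2A1, COL9A3, COL14A1 and COL22A1 were called under IFN-γ in a line. Motifs were searched by letters on both strands. A GC box (GGGCGG) was found in 54.8% of the collagen windows and in 45.0% of all 35116 human windows, a CCAAT box (CCAAT) in 33.3% and 34.6%, and a TATA box (TATAAA) in 19.0% and 11.5%. A GAS match (TTCNNNGAA) was found in 4.76% and 7.66%, and an ISRE-type match (GAAA, 2 bases of any kind, GAAA) in 2.38% and 3.57%, the 1 collagen window being that of COL17A1. The M-box core (CATGTG), an element known from melanocyte genes, was found in 4.76% and 11.1%, and the E-box CACGTG in 0.00% and 7.26%. The window of COL19A1 held none of these motifs. A motif without a match says only that these letters are not in the window.

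Genes of collagen biosynthesis, taken from lists of known roles, were called in both directions. The counts below stand beside 9.51% of all tested genes higher and 8.77% lower in MALME-3M, and 5.98% higher and 7.05% lower in SK-MEL-5, and with few genes in a list they show nothing particular to it. Of 15 tested genes for prolyl and lysyl modification, 1 rose in MALME-3M, where 2 fell, and 1 fell in SK-MEL-5. P4HB, a subunit of prolyl hydroxylase, rose in MALME-3M (1144.4 ± 54 CPM with IFN-γ, 1032.3 ± 19 CPM untreated), and the collagen galactosyltransferase COLGALT1 fell in both lines, by 0.18 on the log2 scale in MALME-3M (adjusted p = 0.023, edgeR) and 0.19 in SK-MEL-5 (adjusted p = 0.018). CRTAP, a part of the prolyl 3-hydroxylase complex, fell in MALME-3M by 0.23 on the log2 scale (adjusted p = 0.011). Of 9 tested genes for folding and secretion, none rose, 1 fell in MALME-3M and 2 fell in SK-MEL-5. SPARC, a collagen-binding matrix protein, had 664.0 ± 17 CPM with IFN-γ and 857.7 ± 12 CPM untreated in MALME-3M, and 356.9 ± 19 and 397.1 ± 2.8 CPM in SK-MEL-5 (SD, n = 3 each). SERPINH1, the collagen chaperone HSP47, fell in SK-MEL-5 (10.3 ± 1.2 CPM with IFN-γ, 13.5 ± 1.2 CPM untreated, adjusted p = 0.0060). Over both lists the median log2 fold change lay between -0.12 and 0.02 in either line.

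Among 6 tested genes for propeptide processing, 2 rose in MALME-3M and 1 in SK-MEL-5 and none fell, where 9.51% and 5.98% of all tested genes rose. The proprotein convertase FURIN rose in both (log2 fold change 0.44, SE 0.056, in MALME-3M and 0.34, SE 0.057, in SK-MEL-5), and the procollagen peptidase ADAMTS14 in MALME-3M (13.7 ± 1.8 CPM with IFN-γ, 8.04 ± 0.45 CPM untreated). Of 5 cross-linking enzymes of the lysyl oxidase family, LOXL3 fell in SK-MEL-5 (14.7 ± 0.60 CPM with IFN-γ, 19.2 ± 1.1 CPM untreated) and none was called in MALME-3M. Of 7 tested collagen receptors, DDR2 and ITGA1 rose in both lines. DDR2, a receptor kinase for fibrillar collagen, had 55.5 ± 2.0 CPM with IFN-γ and 40.6 ± 0.87 CPM untreated in MALME-3M, and 92.7 ± 2.0 and 73.0 ± 2.9 CPM in SK-MEL-5. ITGA1, an integrin chain for type IV collagen, had 60.7 ± 1.9 CPM with IFN-γ and 43.4 ± 3.0 CPM untreated in SK-MEL-5, and under 1 CPM in MALME-3M.

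Of 17 tested regulators of collagen genes, MALME-3M had 4 higher and 1 lower with IFN-γ, and SK-MEL-5 had 3 higher and 1 lower, beside the same shares of all tested genes (9.51% and 8.77%, and 5.98% and 7.05%). CIITA, the class II transactivator, had 136.9 ± 19 CPM with IFN-γ and 1.68 ± 0.38 CPM untreated in MALME-3M, and 51.5 ± 5.8 and 2.58 ± 0.40 CPM in SK-MEL-5 (log2 fold changes 6.36, SE 0.15, and 4.33, SE 0.14). RFX5 rose in MALME-3M (78.7 ± 6.1 CPM with IFN-γ, 40.2 ± 0.22 CPM untreated) and in SK-MEL-5 (137.4 ± 3.3 CPM with IFN-γ, 114.0 ± 3.2 CPM untreated, log2 fold change 0.27, adjusted p = 0.0025, edgeR). CTGF, a matrix-inducing growth factor, fell in SK-MEL-5 (10.2 ± 0.43 CPM with IFN-γ, 16.8 ± 1.5 CPM untreated, adjusted p = 8.5e-05, edgeR). COL1A2, the gene at which CIITA and RFX5 act in fibroblasts, was higher with IFN-γ in MALME-3M, as given above.

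All 8 melanocyte lineage markers were detected in every group, with summed levels of 5830.8 to 6205.7 CPM in IFN-γ-treated and 6268.8 to 6299.4 CPM in untreated MALME-3M, and 5736.2 to 5884.6 CPM and 6076.6 to 6418.0 CPM in SK-MEL-5. With IFN-γ, 2 rose and 2 fell in MALME-3M (9.51% and 8.77% of all tested genes), and 2 fell in SK-MEL-5 (7.05%). S100B rose in MALME-3M (log2 fold change 0.19, SE 0.050) and fell in SK-MEL-5 (-0.34, SE 0.051). DCT fell in both lines (-0.47 and -0.18), and SOX10 rose in MALME-3M (0.21). TYRP1 had 6.87 ± 0.60 CPM in untreated MALME-3M and 516.0 ± 4.4 CPM in untreated SK-MEL-5. Of 12 fibroblast markers, the usual source of collagen in tissue, DPT and PI16 had 0 counts in every library. The summed fibroblast list had 19.2 to 23.7 CPM in IFN-γ-treated and 22.5 to 23.0 CPM in untreated MALME-3M, and 152.7 to 161.0 CPM and 180.5 to 210.6 CPM in SK-MEL-5, most of it from LUM, which had 125.0 ± 2.7 CPM with IFN-γ and 160.9 ± 15 CPM untreated there and also fell in MALME-3M. ACTA2 of the same list rose in both lines, with 8.65 ± 1.3 CPM with IFN-γ and 4.30 ± 0.47 CPM untreated in MALME-3M and 2.62 ± 0.33 CPM and 1.06 ± 0.17 CPM in SK-MEL-5. The 5 endothelial markers summed to 24.1 to 30 CPM with IFN-γ and 40.0 to 43.0 CPM untreated in MALME-3M, mostly KDR, and to 12.8 to 13.9 CPM and 15.3 to 18.7 CPM in SK-MEL-5. The 6 leukocyte markers summed to 111.0 to 121.7 CPM and 210.6 to 215.7 CPM in MALME-3M, mostly CD68, which fell, with PTPRC at 0 counts and ITGAM, which rose, under 1 CPM, and to 19.8 to 25.8 CPM and 18.6 to 24.3 CPM in SK-MEL-5. The part of these markers in the collagen results was not tested. In bulk libraries, fewer cells of a kind and less RNA per cell cannot be told apart.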

How the data were processed

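Total RNA of 12 wells was sequenced as paired ends on a NovaSeq after Pico V3 library preparation, per the labels' protocols. The tools HTSeq, kallisto, STAR, SAMtools and cutadapt and the build hg38 are listed, without versions, in the submitters' processing notes. The deposited gene tables hold whole-number counts per gene, and the deposited transcript tables hold kallisto's estimated counts and TPM, which was not used. No source used here gives the gene models behind the counts or the strand setting. Summary lines that name no gene were left out. The no-feature line equalled 53.3% to 85.0% of the gene counts of its library and the ambiguous line 4.19% to 4.54%.

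The counts of all genes were fitted together in edgeR 4.0.16 (R 4.3.3, limma 3.58.1): filterByExpr with a minimum count of 10, TMM scaling, 4 group means over 12 libraries, 8 residual degrees of freedom, and quasi-likelihood tests with Benjamini-Hochberg adjustment over 15810 genes. Standard errors were derived from the fitted log2 fold change and its F statistic. In counts simulated with the same spread for every gene, 90 of 97 genes changed by 2 on the log2 scale were recovered in SK-MEL-5 and 94 of 97 in MALME-3M. Of genes changed by 1, 87 of 99 and 82 of 99 were recovered, with 6 and 8 false calls among 15554 genes. Genes with split replicates, such as COL14A1, were not simulated, so these rates may be better than those in the data. Estimated counts of 160246 of 361686 transcripts were summed to 20262 genes through GENCODE 29 and rounded. Exon lengths are GENCODE 29 unions, and promoter windows and sequences are from RefSeq on GRCh38.p14. The share of collagen counts was compared by an exact permutation test (scipy 1.17.1). Counting intervals cover counting error only.

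The collagen genes and all gene lists were chosen with earlier results of these data known. Values of every library are given for collagen genes called under IFN-γ in a line or in the difference of the responses, the 6 with the highest level per kb in each untreated line, and the 4 with the largest called difference between the untreated lines in each direction. Of the other pathway genes, up to 3 called genes per list and line are named, and 1 regulator that the rule names is not reported here. Alternatives were DESeq2 1.42.0, its size factors, upper-quartile scaling, no count filter, a minimum count of 30, transcript counts, a fit within each line and leaving out each library.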

Additional observations from a re-analysis of the deposited data

Results flagged for a closer look

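The response to IFN-γ differed between MALME-3M and SK-MEL-5 in the test of the difference itself (edgeR, log2 fold change in MALME-3M minus that in SK-MEL-5) for 6 collagen genes. COL19A1 rose more in MALME-3M, by 1.04 (adjusted p = 7.5e-06), and all 3 treated libraries lay above the untreated ones in each line, but on transcript estimated counts the difference was 0.41 (SE 1.0, adjusted p = 0.95). COL4A2 differed by 0.59 (adjusted p = 0.0035), COL5A3 by 0.95 (adjusted p = 0.029) and COL7A1 by 1.14 (adjusted p = 0.023), each with a call in MALME-3M and none in SK-MEL-5. The COL5A3 call was lost without any of 7 libraries and the COL7A1 call without any of 5. COL9A3 differed by 0.87 (adjusted p = 0.010), having fallen in both lines. COL27A1 differed by -0.53 (adjusted p = 0.023), having fallen in MALME-3M and not been called in SK-MEL-5, and was lost without any of 5 libraries. On transcript estimated counts, COL9A3 was the 1 of the 6 that was called. Line, dose and medium differ together between these groups and cannot be told apart.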

How the results depend on the processing

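No paired analysis was possible because the labels give no replicate numbers. The replicate numbers used here only follow the order of the samples and tie no library of a group to one of another group. Each of the 76 calls of tested collagen genes kept its direction and its side of the threshold with DESeq2, DESeq2's size factors, upper-quartile scaling and no count filter, as did all 71 that a minimum count of 30 left. COL18A1 in SK-MEL-5 was called in addition with DESeq2's size factors, upper-quartile scaling and a minimum count of 30. With no count filter, COL14A1 was called in MALME-3M (0.53) and made 2 negative differences of the response in place of 1. The fit within a line gave 5 lower genes in SK-MEL-5 in place of 3 and lost COL25A1 in MALME-3M. With transcript estimated counts, 44 of 69 calls held, 23 missed the threshold and 2 changed sign, COL11A2 in SK-MEL-5 (0.65) and COL5A2 between the treated lines (-0.58). On those counts 0 genes were higher and 1 lower with IFN-γ in SK-MEL-5, 2 higher and 1 lower in MALME-3M, 1 positive and 0 negative in the difference of the responses, and 4 lower between the untreated lines, and the collagen share in SK-MEL-5 differed by 17.5 per 1000000 gene counts. The transcript counts tested fewer genes, and for the rest the cause was not tested. The SK-MEL-5 share differed by 15.9 without COL19A1, an alternative chosen after seeing the data, as was leaving out COL14A1 (61.5). Leaving out 1 library gave 1 to 3 higher and 3 to 4 lower genes in SK-MEL-5, 8 to 8 higher and 3 to 6 lower in MALME-3M, 3 to 5 positive and 0 to 2 negative differences of the response, 19 to 20 higher and 7 to 7 lower between the untreated lines, and 18 to 19 higher and 6 to 7 lower between the treated lines. It lost 27 of 912 gene calls. The 13 untested genes are beyond the depth of these libraries.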
